A study of Drosophila melanogaster with 7 samples.

Results

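Strong CP190 sites without other insulator proteins are places where CP190 gave a high peak in interphase but where no peak of dCTCF, BEAF or Su(Hw) lay on top of it. They were chosen by measured values: interphase CP190 peaks with an authors' score of at least 1000, on chromosomes 4 and X and on both arms of chromosomes 2 and 3 (the main arms). A peak was kept when it shared not even 1 bp with an interphase dCTCF peak, an interphase BEAF peak or a mitotic Su(Hw) peak. The rule gave 557 sites, out of 2444 CP190 peaks on the arms that met the same score minimum (strong peaks). There were 10431 CP190 peaks on the arms and 11470 in the whole interphase list. Across the 7 lists of the series there were 40204 peaks.

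The material was Kc167, an established Drosophila melanogaster line of embryonic origin, with no transgene or drug treatment named in the labels. Formaldehyde-fixed cells were stained for histone H3 phosphorylated at serine 10, a mark of condensing chromosomes, and for DNA, and were sorted into interphase and mitotic populations. Chromatin immunoprecipitation sequencing (ChIP-seq) was then done for CP190, dCTCF and BEAF in each phase, and the Su(Hw) list analysed here is from mitosis, so Su(Hw) in interphase was not assessed at these sites. The antibodies to CP190, BEAF and Su(Hw) came from rabbit, as did, per the anti-rabbit detection reagent, the histone antibody already bound during the sort, while the dCTCF antibody came from guinea pig and rat. Each group was 1 library, so p-values are not given and nothing here was checked in replicates. Peak lists carry no measure by which the identity of the line could be checked.

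CP190 is a protein with a BTB domain and zinc fingers that takes part in insulator complexes. Insulators are DNA elements that limit or direct contacts between enhancers and promoters and lie at many borders of chromatin domains. CP190 is generally brought to chromatin by proteins that read DNA sequence themselves: dCTCF, the fly homolog of vertebrate CTCF, BEAF, the boundary element-associated factor first described at the hsp70 scs' element, and Su(Hw), the factor of the gypsy retrotransposon insulator. Other DNA-binding partners of CP190 are known in flies and were not profiled here. In mitosis chromosomes condense and many chromatin proteins leave them.

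Intervals below are 95% intervals, Wilson for a share and Newcombe for a difference of shares, and they cover counting error over sites only. Where a share is 0, the upper limit given is 3 counts of the total in place of the Wilson bound. Sites of 1 library are not replicates. The sequencing depth of the libraries is unknown, and a site without a peak is one that was not called at that depth. Scores are the authors' and rank peaks within 1 list only. A score of 3100 is shared by many peaks and may be a ceiling. Positions are printed with 1-based starts, so each start is 1 more than in the deposited list, and ends are as deposited. The lists use the sequence names of fly genome release 5, and sites were not assigned to genes.

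The interphase values that chose the sites are given first, as a description. The 557 sites made up 22.8% (21.2 to 24.5%) of the strong CP190 peaks on the arms. Peaks without a partner were 54.6% (53.5 to 55.7%) of the 7987 CP190 peaks scoring under 1000. The other 1887 strong peaks, called partner sites below, overlapped dCTCF, BEAF or Su(Hw). Among all strong peaks 1264 carried BEAF, 1239 carried dCTCF and 412 carried Su(Hw), and 105 carried all of them. Interphase CP190 scores of the 557 sites ran from 1000.09 to 3224.03 with a median of 1538. The median of the partner sites was 2222. A score of at least 3100 was reached by 26 of the 557 sites (4.67%) and by 559 of the partner sites (29.6%). The CP190-alone sites therefore lay toward the lower end of the strong range, and comparisons between the sets are also given within bands of score.

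The lowest scoring site inside the rule was X 8369804 to 8370518, with a score of 1000.09. The next was 3R 1580071 to 1581138, with 1000.62. The peaks that met all other criteria and scored just under the minimum were 3R 11808653 to 11810202, with 998.01, and 3L 11700982 to 11701811, with 996.06. Of these 4 peaks only that at 3L had a mitotic CP190 peak. In all, 44 sites lay within 50 score units above the minimum and 29 otherwise eligible peaks within 50 units under it.

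CP190 was found in mitosis at a minority of these sites, far less often than at strong CP190 peaks that carried another insulator protein. A mitotic CP190 peak overlapped 158 of the 557 CP190-alone sites (28.4%, 24.8 to 32.2%). It overlapped 1470 of the 1887 partner sites (77.9%, 76.0 to 79.7%). The difference was -49.5 percentage points (-53.6 to -45.2). The share over all interphase CP190 peaks on the arms, of any score, was 31.4%, and over all strong ones 66.6%. The CP190-alone share was thus near that of CP190 peaks in general, although their scores were higher. The mitotic CP190 peaks covered 2.06% of the arm length. This is a share of length, and the share of randomly placed sites that would overlap was not computed.

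The difference was seen against each kind of partner. Mitotic CP190 was called at 114 of 179 strong peaks with Su(Hw) only (63.7%, 56.4 to 70.4%). It was called at 268 of 384 with dCTCF only (69.8%, 65.0 to 74.2%) and at 288 of 401 with BEAF only (71.8%, 67.2 to 76.0%). With dCTCF and BEAF but no Su(Hw) it was called at 84.1% (81.1 to 86.6%) of 690 peaks, and with all of these partners at 105 of 105. The difference of the CP190-alone sites from the Su(Hw)-only class was -35.3 points (-42.9 to -27.1), and from the other classes it was larger. Because the Su(Hw) list is itself from mitosis, like the readout, a rule with dCTCF and BEAF alone was also tried, a choice made after the data were seen. It gave 736 sites with a mitotic CP190 share of 37.0% (33.5 to 40.5%), a difference of -42.4 points from the remaining strong peaks.

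**Figure D1:**
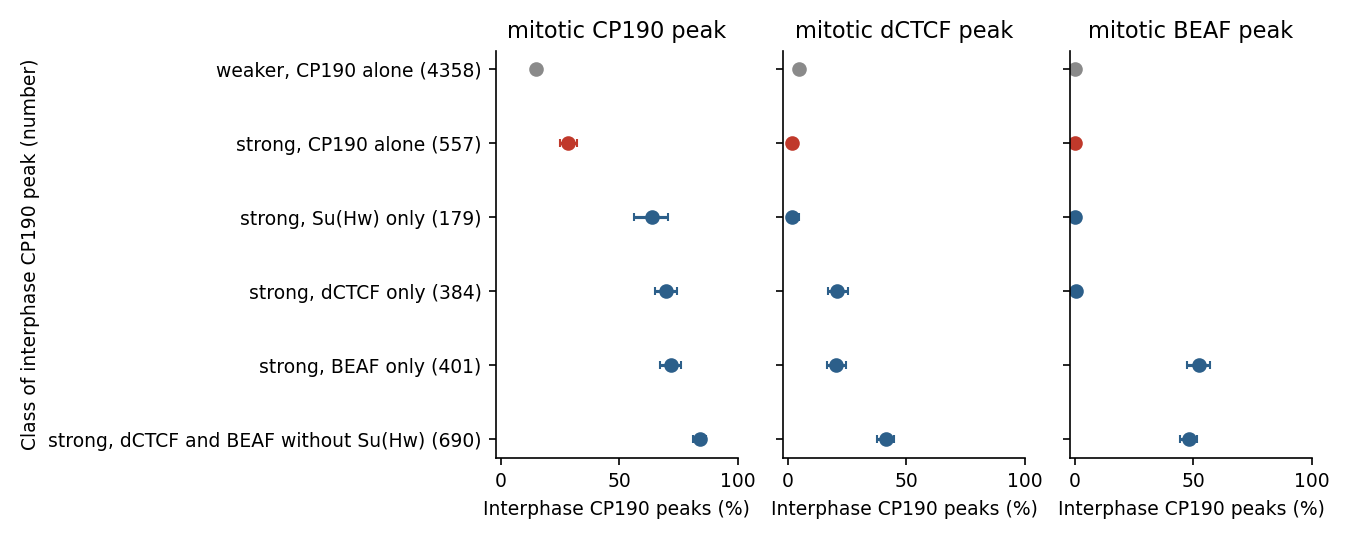
Share of interphase CP190 peaks on the main arms, in percent, that overlapped a mitotic peak of CP190, dCTCF or BEAF, by class of interphase peak (number of peaks in brackets); bars are 95% Wilson intervals over sites of 1 library. The strong CP190-alone class lies at 28.4% for mitotic CP190, between the weaker CP190-alone peaks at 14.7% and the partner classes, of which Su(Hw) only is the lowest at 63.7%.

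The difference in mitotic CP190 held within bands of interphase score. From 1000 to under 2000, 85 of 423 CP190-alone sites (20.1%, 16.6 to 24.2%) and 523 of 836 partner sites (62.6%, 59.2 to 65.8%) had a mitotic CP190 peak. From 2000 to under 3100 these were 55 of 108 (50.9%, 41.6 to 60.2%) and 406 of 492 (82.5%, 78.9 to 85.6%). At 3100 and above they were 18 of 26 (69.2%, 50 to 83.5%) and 541 of 559 (96.8%, 95 to 98.0%). The differences were -42.5 points (-47.2 to -37.2), -31.6 points (-41.4 to -21.7) and -27.5 points (-46.8 to -13.2). The smallest gap to a single-partner class was in the lowest band, where Su(Hw)-only peaks stood at 25 of 74 (33.8%, 24.0 to 45.1%). The difference from it was -13.7 points (-25.6 to -3.13).

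Without a partner the mitotic share was similar over a wide range of scores and higher above it. Among all CP190-alone peaks on the arms, including weaker ones, it was 13.1% (11.5 to 14.8%) at scores from 50 to 100 and 15.4% (12.7 to 18.6%) from 500 to 1000. It was 38 of 260 (14.6%, 10.8 to 19.4%) from 1000 to 1500. Above that it was 28.8% (22.4 to 36.2%) from 1500 to 2000 and 52.5% (40.0 to 64.7%) from 2000 to 2500. Peaks with a partner started at 13.9% (11.5 to 16.6%) in the lowest band, within the interval of peaks without one, and were higher in each further band, with 43.9% (40.7 to 47.3%) from 500 to 1000. Of the CP190-alone sites scoring at least 2000, 73 of 134 (54.5%, 46.0 to 62.7%) had mitotic CP190, 34.4 points (25 to 43.3) more than those from 1000 to under 2000. The same step was 27.5 points (23.8 to 31.3) among partner sites. As a class, the 557 sites exceeded the 4358 weaker CP190-alone peaks, of which 14.7% (13.7 to 15.8%) had mitotic CP190, by 13.6 points (9.89 to 17.6).

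**Figure D2:**
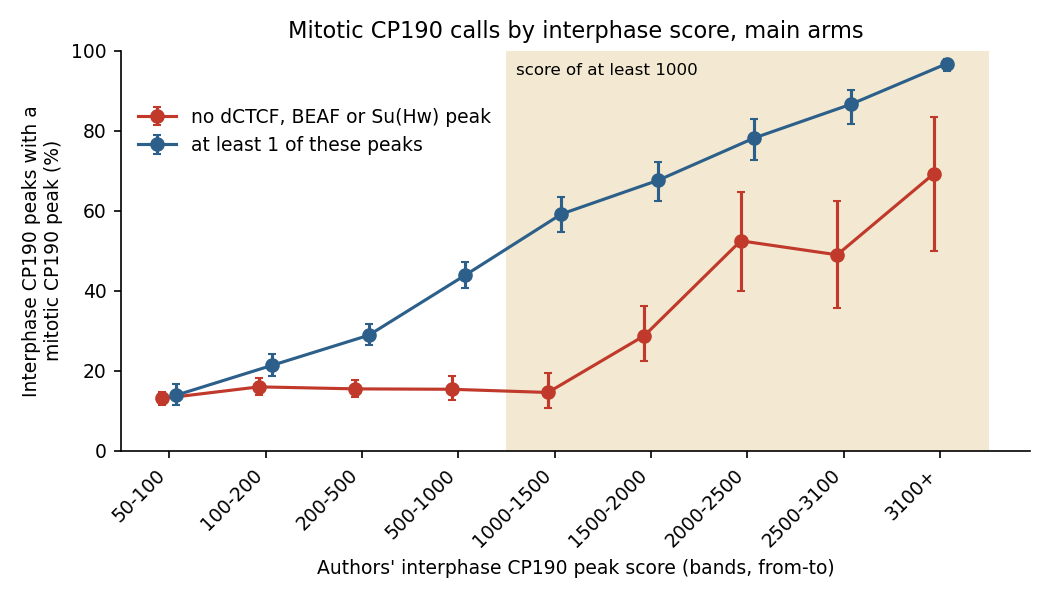
Share of interphase CP190 peaks on the main arms with an overlapping mitotic CP190 peak, in percent, by band of the authors' interphase score, for peaks without (red) and with (blue) a dCTCF, BEAF or Su(Hw) peak; bars are 95% Wilson intervals and the shaded bands hold the strong peaks. Both curves start near 13 to 14%, and the red one stays between 13.1 and 16.0% up to a score of 1500 while the blue one reaches 59.2%.

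The difference was also seen within bands of peak width. The CP190-alone sites were 283 to 2633 bp wide with a median of 762 bp, and the partner sites had a median of 942 bp. Among peaks narrower than 1000 bp, 113 of 434 CP190-alone sites (26.0%) and 775 of 1052 partner sites (73.7%) had mitotic CP190. From 1000 to 1500 bp these were 37.5 and 82.4%. Over 1500 bp they were 6 of 19 sites (31.6%, 15.4 to 54.0%) and 85.1%. When the partner sites were weighted to the score and width make-up of the CP190-alone sites, their share was 67.3% and the difference was -38.9 points. This weighting was added after the data were seen.

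Strong CP190 peaks with a single partner were also divided by the score of the partner peak, separately for each protein because scores of different lists cannot be compared. With dCTCF only, mitotic CP190 was called at 48.7% (37.9 to 59.6%) of 78 peaks whose dCTCF peak scored under 100, at 58.1% (47.9 to 67.6%) of 93 from 100 to 500 and at 82.6% (77.0 to 87.1%) of 213 above. With BEAF only the shares did not follow the BEAF score throughout, at 59.3% (46.6 to 70.9%) of 59, 78.2% (69.6 to 84.9%) of 110 and 72.0% (65.9 to 77.4%) of 232. With Su(Hw) only they were 51.6% (41.7 to 61.4%) of 95 and 76.2% (65.9 to 84.2%) of 80, and 4 of 4 above 500. In the interphase CP190 score band from 1000 to under 2000, the dCTCF-only shares were 35.9% (22.7 to 51.6%), 30.6% (18.0 to 46.9%) and 74.2% (64.5 to 82.0%). The BEAF-only shares in that band were 54.3% (40.2 to 67.8%), 71.2% (60.5 to 80.0%) and 67.1% (59.7 to 73.6%). Peaks with Su(Hw) only stood at 9 of 45 (20.0%, 10.9 to 33.8%) under a Su(Hw) score of 100 and at 16 of 29 (55.2%, 37.5 to 71.6%) from 100 to 500. The first of these was close to the 20.1% (16.6 to 24.2%) of CP190-alone sites in the band. This split was chosen after the data were seen.

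Where CP190 was called in mitosis, its peak at a CP190-alone site lay close to the centre of the interphase peak and was mostly narrower. Midpoints of the interphase and mitotic peaks were a median of 59.8 bp apart, and 83.5 bp at called partner sites. The mitotic peak had a median width of 522 bp, and it was wider than the interphase peak at 7 of 158 sites. The median ratio of mitotic to interphase width was 0.667, and at partner sites it was 0.640. Both sets were chosen for a high interphase score with no minimum in mitosis. Interphase score and width went together weakly (Spearman correlation 0.22 over the 557 sites). The sites had a median interphase width of 762 bp, against 600 bp for all interphase CP190 peaks on the arms. How far this choice of sites bears on the width ratio was not tested. At 1 of the 158 sites the mitotic peak also reached another interphase CP190 peak, and no mitotic peak covered 2 of the sites.

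Mitotic scores at these sites lay around the middle of the mitotic CP190 list. They ran from 50 to 1194.68 with a median of 116, against 124 for all 3759 mitotic CP190 peaks on the arms and 224 at called partner sites. Within the interphase score band from 1000 to under 2000, the medians were 97.8 at 85 CP190-alone sites and 141 at 523 partner sites. At interphase scores of at least 3100 they were 252 and 416. A mitotic score under 100 was found at 43.0% of the called CP190-alone sites and at 21.0% of the called partner sites. Across the 158 called sites the Spearman correlation of interphase with mitotic score was 0.15, and across the 1470 called partner sites it was 0.39. These are descriptions over sites of the same libraries, and ties at 3100 bear on both.

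**Figure D3:**
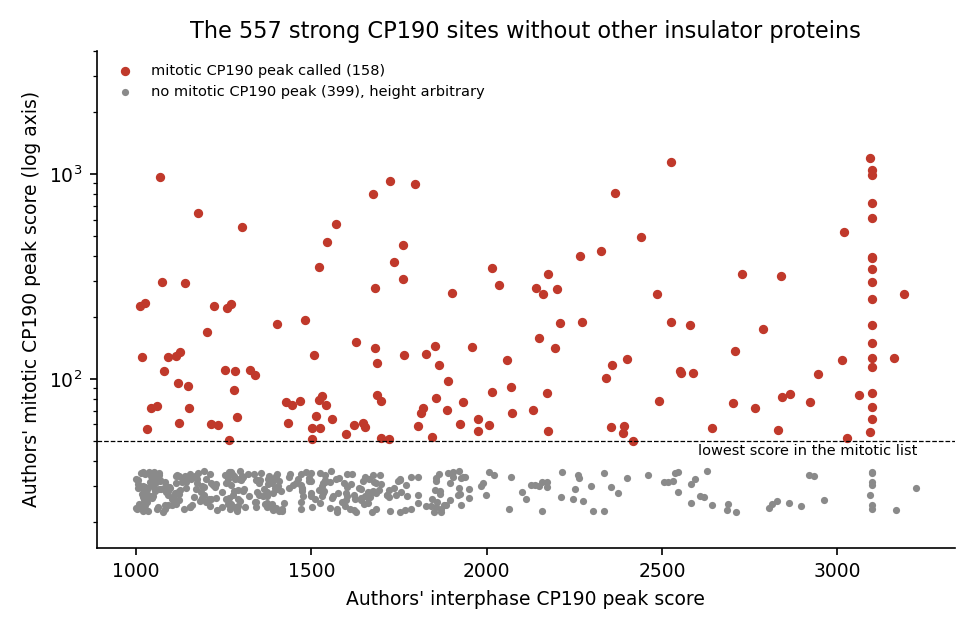
Each of the 557 CP190-alone sites by its authors' interphase CP190 score (horizontal) and authors' mitotic CP190 score (vertical, log axis); red points are the 158 sites with a mitotic CP190 peak, and grey points below the dashed line are the 399 sites without one, whose height has no meaning. Under an interphase score of 1500, 38 of 260 sites are red, and mitotic scores spread from 50 to 1194.68; the axes come from different lists and cannot be compared.

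Single sites show the range of outcomes. The highest mitotic CP190 score was at 2R 9058409 to 9059485, with an interphase CP190 score of 3092.65 and a mitotic score of 1194.68. The site at X 10213143 to 10213725 had 2526.46 and 1140.77, and lay 102 bp from a weak Su(Hw) peak scoring 63.52. That at 3L 14666971 to 14667713 had 3100 and 1050.36 and lay 1770 bp from an interphase dCTCF peak. No mitotic dCTCF or BEAF peak was called at these 3 sites. A high mitotic score was also found at a site near the rule's minimum interphase score of 1000. The site at 3R 14299668 to 14300436 had 1067.96 in interphase and 963.93 in mitosis, and was 23602 bp from the nearest partner peak. The called sites with the highest interphase scores were X 3179158 to 3179718 with 3189.86 and 3R 16158464 to 16159047 with 3161.76. Their mitotic scores were 258.69 and 127.3, against a median of 116 over all called CP190-alone sites.

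Sites equally strong in interphase had no peak in any other list. At 2R 12495859 to 12497354, with the highest score of the class (3224.03), none of the other 6 lists had a peak. An interphase dCTCF peak scoring 121.89 lay 421 bp away. Closer still, at 72 bp, was a separate interphase CP190 peak scoring 2440.83, which was a partner site. The site at 2R 13379973 to 13381626, with 3166.84, was 2374 bp from a BEAF peak scoring 53.5. At 3L 13680916 to 13682111, with 3100, the nearest partner peak was 49373 bp away, and at 3L 22448727 to 22449781, also with 3100, it was 40573 bp away. Strong CP190-only calls were thus found both beside and far from other insulator proteins. In all, 393 of the 557 sites (70.6%, 66.6 to 74.2%) had no peak in any of the other 6 lists. Since the rule excludes a peak in 3 of those lists, this share has little meaning beside the 37.7% over all interphase CP190 peaks on the arms or the 16.1% over strong ones.

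Mitotic dCTCF and BEAF were rarely called at the CP190-alone sites. A mitotic dCTCF peak overlapped 10 of 557 sites (1.80%, 0.978 to 3.27%), against 16.1% of all interphase CP190 peaks on the arms and 21.2% of strong ones. At partner sites it was 27.0% (25 to 29.0%), and at those with BEAF only, which lack interphase dCTCF, 20.2% (16.6 to 24.4%). At those with Su(Hw) only it was 3 of 179 (1.68%, 0.572 to 4.81%), and at weaker CP190-alone peaks 4.70% (4.11 to 5.37%). Mitotic dCTCF peaks covered 2.36% of the arm length, which again is not a share of sites and cannot be set against 1.80%. A mitotic BEAF peak overlapped 1 site (0.180%, 0.0317 to 1.01%), against 20.5% of all CP190 peaks on the arms, 25.4% of strong ones and 52.4% (47.5 to 57.2%) of those with BEAF only. It was as rare at the other classes without interphase BEAF. With dCTCF only it was at 1 of 384 peaks (0.260%, 0.0460 to 1.46%). With Su(Hw) only it was at 0 of 179, which allows up to 1.68%, and at weaker CP190-alone peaks it was at 5 of 4358 (0.115%). The rule itself removes sites with interphase dCTCF or BEAF, so low shares of the same proteins in mitosis are in part fixed by it.

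The exceptions were mostly weak. Of the 10 sites with mitotic dCTCF, 4 also had mitotic CP190 and 6 did not. The highest mitotic dCTCF score was at 2L 7984052 to 7984430, a narrow CP190 peak of 379 bp with an interphase score of 1193.1, where dCTCF scored 1614.04 in mitosis and CP190 and BEAF were not called in mitosis. That site lay 119 bp from an interphase BEAF peak scoring 59.16 and 947 bp from an interphase dCTCF peak. The next mitotic dCTCF scores were 152.32 at 2L 12172668 to 12173401 and 140.8 at 2L 16737911 to 16738560, both without mitotic CP190. The other 7 lay between 50.11 and 91.22. Among those with mitotic CP190 too, 3L 4121981 to 4122777 had scores of 571.32 for CP190 and 79.71 for dCTCF. The 1 site with mitotic BEAF was 2R 13491870 to 13492410, where BEAF scored 98.35 and CP190 259.05 in mitosis and 2159.99 in interphase.

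The distance of the CP190-alone sites from the other insulator proteins varied widely. The median gap to the nearest partner peak was 7538 bp, with a range from 47 to 81193 bp, and 459 of the 557 sites had one within 20000 bp. No other positions were measured for comparison. The nearest was BEAF for 236 sites, dCTCF for 207 and Su(Hw) for 114, lists of 5681, 2882 and 1024 peaks on the arms. Another interphase CP190 peak of any score lay at a median of 3171 bp, and another site of the class at 53635 bp. Sites with a partner peak less than 1000 bp away, but not overlapping, had mitotic CP190 about as often as the class as a whole. Of the 53 sites with a partner peak less than 1000 bp away, 15 had mitotic CP190 (28.3%, 18.0 to 41.6%). The shares were 36.4% (28.9 to 44.7%) from 1000 to 5000 bp, 25.6% (20.7 to 31.1%) from 5000 to 20000 bp and 24.5% (17.0 to 33.9%) beyond. At interphase scores from 1000 to under 2000, the shares from the nearest to the farthest band were 17.9, 28.3, 18.0 and 15.1%. At scores of at least 2000 they were 57.1, 61.8, 50.8 and 52.0%. Called and uncalled sites had median gaps of 7273 and 7538 bp. For BEAF alone the medians were 11017 and 15554 bp, for dCTCF 18430 and 16471 bp, and for Su(Hw) 33938 and 42596 bp. Few uncalled sites had a mitotic CP190 peak close by: 18 of 399 (4.51%) had one within 1000 bp, and the median gap was 13820 bp. This was also so for uncalled partner sites, with 34 of 417 (8.15%) and a median gap of 10135 bp.

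**Figure D4:**
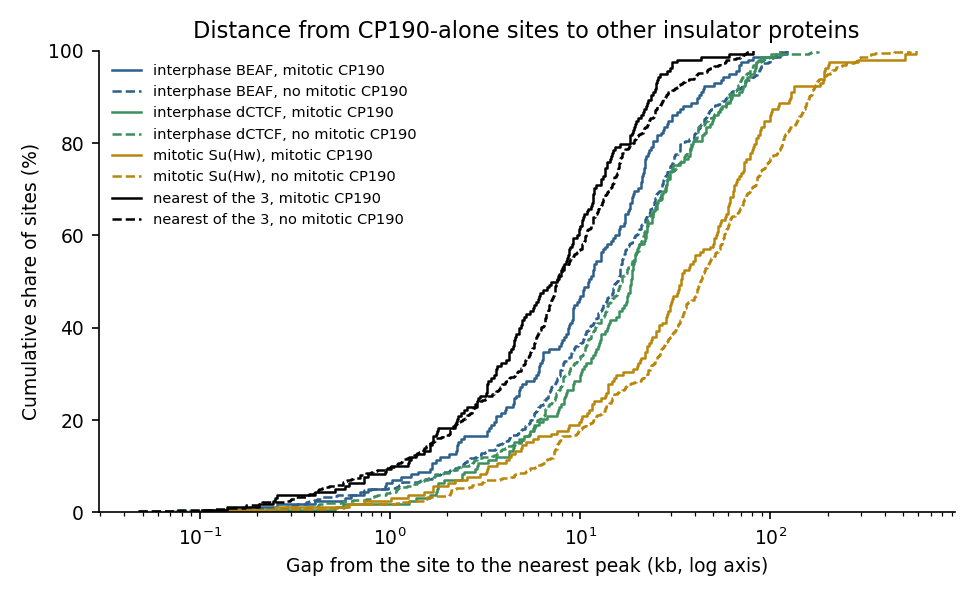
Cumulative share of CP190-alone sites, in percent, by the gap in kb (log axis) to the nearest interphase BEAF, interphase dCTCF or mitotic Su(Hw) peak and to the nearest of the 3, for the 158 sites with (solid) and the 399 without (dashed) a mitotic CP190 peak. For the nearest of the 3, the solid and dashed curves cross 50% at 7273 and 7538 bp, and the largest separations are for BEAF and Su(Hw).

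The edge cases show how close partner peaks could lie. The site nearest to a partner was X 21844826 to 21845315, with an interphase CP190 score of 3092.56, which ended or began 47 bp from a BEAF peak scoring 2012.41 and had no mitotic call. The site at 3R 22782625 to 22783531, with 1883.21, lay 74 bp from a dCTCF peak scoring 3100 and beside a separate CP190 peak scoring 3121.37. The farthest was 2L 5624007 to 5624557, with 2358.1 in interphase and 117.47 in mitosis for CP190, 81193 bp from its nearest partner peak. When sites with a partner peak within 1000 bp were moved to the partner set, the mitotic CP190 share of the rest was 28.4%.

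Some sites lay next to each other. The closest pair was at 3L 20175748 to 20176594 and 3L 20176628 to 20177745, with interphase CP190 scores of 1854.95 and 3100, and neither had a mitotic peak. At 2L 11473831 to 11474479 and 2L 11474609 to 11475514, with 2388.37 and 2491.43, both had one, with weak mitotic scores of 54.41 and 78.25. The pair at 2L 19929635 to 19930180 and 2L 19930262 to 19930747 scored 1017.65 and 1177.73 and had none. Only 23 of the 557 sites had another site of the class within 1000 bp. However, 145 of them (26.0%) had another interphase CP190 peak of any score within 1000 bp, as did 663 partner sites (35.1%). Neighbouring peaks may belong to 1 broader region that was split in the peak list, so they are not independent. The widest single site, 3R 15739757 to 15742389 at 2633 bp, scored 2375.78 and had no mitotic peak.

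All large arms carried such sites, and the lower mitotic share was seen on each. The CP190-alone share of strong peaks was 27.4% (23.2 to 32.0%) on 2L, 24.0% (20.4 to 27.9%) on 2R, 22.4% (19.2 to 25.9%) on 3R, 21.1% (17.6 to 25%) on X and 20.6% (17.2 to 24.5%) on 3L, intervals that overlap. On chromosome 4 it was 0 of 14, which allows a share of up to 21.4%. Mitotic CP190 was called at 24 of 109 sites on 2L (22.0%, 15.3 to 30.7%), the lowest share, and at 35 of 99 on 3L (35.4%, 26.6 to 45.2%), the highest. The median interphase scores on these arms were 1409 and 1627. On 2R, 3R and X the shares were 31.4, 27.1 and 26.5%, at median scores of 1657, 1511 and 1431. The difference from partner sites on the same arm ran from -39.2 points (-48.8 to -28.4) on 3L to -57.9 points (-65.9 to -47.9) on 2L.

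**Figure D5:**
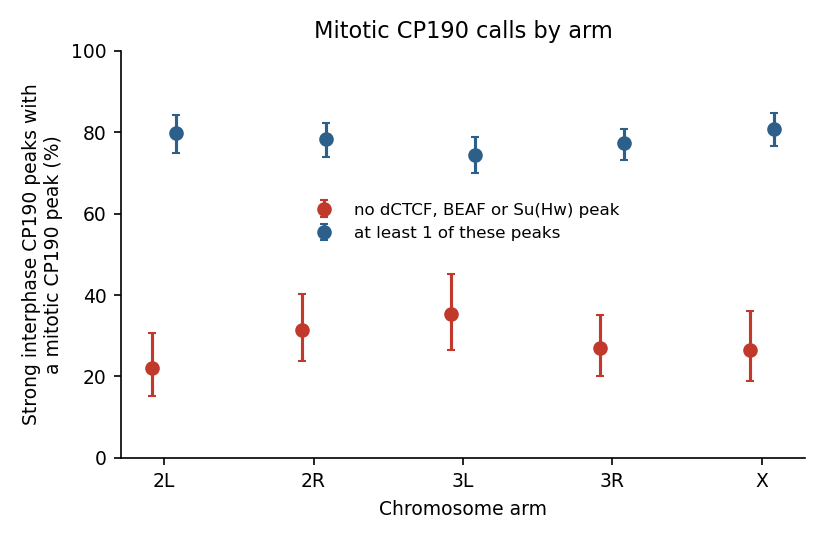
Share of strong interphase CP190 peaks with a mitotic CP190 peak, in percent, by chromosome arm, without (red) and with (blue) a dCTCF, BEAF or Su(Hw) peak; bars are 95% Wilson intervals, and chromosome 4, with no CP190-alone site, is not drawn. Red shares lie between 22.0 and 35.4% and blue ones between 74.5 and 80.9%, with no overlap of their intervals on any arm.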

How the data were processed

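Per the submitters' processing notes, the authors used Bowtie 0.12.5 for alignment. They deposited 1 peak list per library with a score for each peak. Peak names begin with MACS. The version of the caller, its threshold, any control library, the meaning of the score and the genome build were each not given in the sources used here. Library depth affects a score, so scores were used within a list only.

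Groups were taken from the sample titles. Overlap of at least 1 bp counted as a call, and bedtools 2.31.1 gave the same overlap counts for all 42 ordered pairs of lists. The code was also tested on simulated data made of shifted peaks. Calculations used Python 3.11.15, NumPy 2.4.6, pandas 2.3.3 and SciPy 1.17.1, and figures matplotlib 3.10.9. Arm length was the highest peak end in any list.

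The members, bands and comparison sets were chosen with earlier results of these data known. Named regions were the extremes of score, mitotic score, width, gap and spacing, and those with mitotic dCTCF or BEAF. The gene table at hand is of release 6, so no gene, annotation or sequence was attached to any site.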

Additional observations from a re-analysis of the deposited data

How the results depend on the processing

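Over 13 alternative settings and 8 results, 39 of 83 values stayed within the interval of the reported value (for the number of sites, within 1.5 times) and 44 moved, and no difference changed sign. With a reciprocal overlap of 50%, mitotic CP190 was at 21.2% of CP190-alone and 55.5% of partner sites, a difference of -34.4 points, and 77.9% of CP190-alone sites had no other call. With 400-bp windows the partner share was 73.6%. With mitotic peaks scoring at least 100, the shares were 16.2 and 61.6%, mitotic dCTCF was at 0.539%, mitotic BEAF at 0% (0 of 557, which by 3 counts of the total allows 0.539%) and no call at 83.3%. With mitotic lists cut to their 1024 highest scoring peaks, the shares were 7.54 and 36.6% (difference -29.1 points), dCTCF was at 0.539%, BEAF at 0%, no call at 91.9% and the step at a score of 2000 was 15.6 points. These settings leave fewer mitotic peaks or overlaps.

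Changing the score minimum changed the members. With 500 there were 1134 sites, shares of 21.8 and 67.2% and no call at 75.7%. With 2000 there were 134 sites, shares of 54.5 and 90.1% (difference -35.6 points), dCTCF at 0.746% and no call at 44.8%. With 3100 there were 26 sites, shares of 69.2 and 96.8% (difference -27.5 points), dCTCF and BEAF at 0% each (0 of 26, which by the same limit allows 11.5%) and no call at 30.8%. Counting only partner peaks scoring at least 100 gave 839 sites, shares of 37.4 and 81.9% (difference -44.4 points), dCTCF at 4.29% and no call at 61.1%. Without Su(Hw) in the rule, the CP190-alone share was 37.0% and the difference -42.4 points. With weighting for score and width the partner share was 67.3% and the difference -38.9 points. The cause of these shifts was not tested. No paired analysis was possible because each group was 1 library. For the same reason no replicate could be left out. Depth is unknown and limits every statement on a missing peak.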

Other observations

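Outside the main arms, strong CP190 peaks without dCTCF, BEAF or Su(Hw) were few. Of 77 strong interphase CP190 peaks on the heterochromatic and unplaced sequences, 3 met the other criteria (3.90%), 1 on 2RHet and 2 on U. The one on 2RHet had a mitotic CP190 peak, and none of the 3 had mitotic dCTCF or BEAF. On Uextra, the collection of unplaced sequence, it was 0 of 54, which allows a share of up to 5.56%.

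Seen from the mitotic list, 173 CP190 peaks on the main arms scored at least 1000, and 3 of them (1.73%) lay at a CP190-alone site. Of the 3759 mitotic CP190 peaks of any score on these arms, 159 did. The first of these counts is small.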
